A study of Homo sapiens with 2 samples.

Results

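The collagen chain genes are the genes named COL, a type number, A and a chain number, each of which encodes 1 of the polypeptides that wind into a collagen triple helix. Membership rests on that name pattern alone, which uses no measured value, though the family was chosen with earlier results of these data known. The table lists 35 such genes with 230 transcripts, of 24124 genes and 134092 transcripts in all. Of the 44 human chains in the family, 9 (COL4A3, COL6A6, COL9A1, COL10A1, COL11A1, COL14A1, COL19A1, COL22A1 and COL25A1) were not listed there and so were not analysed. Whether they had no reads or were left out is not known. RNA sequencing was done on SAS, an established oral cancer cell line. The ASC library came from SAS cells stably carrying pLKO.AS2 with ASC, and the control library from SAS cells with pLKO.AS2 alone. Both lines were grown in DMEM with 10% FBS, G418 at 200 μg/ml and puromycin at 2 μg/ml, so both had passed drug selection. ASC is the inflammasome adaptor protein that PYCARD encodes, and the comparison asks what differs when SAS cells carry it. Each group is 1 library from 1 line, so none of the differences has been checked in a repeat library, and what the added ASC did cannot be told apart from how these 2 lines or library preparations differ otherwise.

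Collagens are the main structural proteins of the extracellular matrix. Fibrillar chains (types I, II, III, V, XI and others) build banded fibrils, and fibril-associated chains such as type XII sit on their surface. Type IV chains form the sheet-like network of basement membranes, to which epithelial cells are held by the transmembrane type XVII in hemidesmosomes and, from the stroma side, by type VII anchoring fibrils. Most fibrillar collagen of an oral tumour is made by fibroblasts, while the epithelial cells make basement membrane and anchoring collagens.

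Values are RPKM (reads divided by transcript length and by the depth of the library), summed over the transcripts of a gene, and each pair of values gives the ASC library first and the control second. The log2 ratio is taken after adding 1 RPKM, which shrinks the differences of low genes. A log2 ratio of reads scaled to the listed reads of each library is given beside it, with an exact 95% interval that covers counting error only. The libraries held 31426491 and 31289581 listed reads, and PYCARD stood at 266.5 against 1.36 RPKM, in the direction the labels give. All 11 genes listed as epithelial markers were above 1 RPKM in both libraries. In the ASC library 7 of them were higher and 4 lower. KRT18 (1363 against 967.1 RPKM), KRT8 (1136 against 763.0), KRT17 (406.6 against 334.7) and SFN (183.4 against 133.9) were higher. So were KRT14 (82.3 against 61.2 RPKM) and CDH1 (82.6 against 65.6), and EPCAM (193.48 against 193.35) was level. KRT5 (311.0 against 421.0 RPKM), TP63 (46.0 against 54.5) and KRT6A (8.13 against 11.5) were lower, and DSG3 (10.05 against 10.21) only slightly so. The 11 summed to 3823 against 3016 RPKM, a sum in which the most abundant genes, KRT18 and KRT8, weigh most.

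Of the 35 collagen genes, 15 reached 1 RPKM in either library and were compared, and 20 stayed under it in both. With ASC, 2 of the 15 were higher by 2-fold or more, COL12A1 and COL5A2, where 0.617% of all 12471 compared genes were. None of the 15 was at least 2-fold lower, where 0.265% of all compared genes were. At 1.5-fold on this scale, COL5A1 joined the higher genes (3 of 15, against 2.38% of all genes) and COL17A1 was the lower one (1 of 15, against 1.81%). COL4A5 was 1.52-fold lower in plain RPKM and fell short of 1.5-fold once 1 RPKM was added. The median log2 ratio of the 15 was 0.07, beside 0.01 over all compared genes, with 8 members above 0 and 7 below. All 15 chains had reads in both libraries. All collagen genes together summed to 259.8 against 241.0 RPKM, and without COL12A1 to 241.3 against 239.6 RPKM. In CPM, which scales reads to library depth alone and so gives long transcripts such as COL12A1 more weight, the sums were 1676 against 1415, and without COL12A1 1456 against 1399.5.

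**Figure D1:**
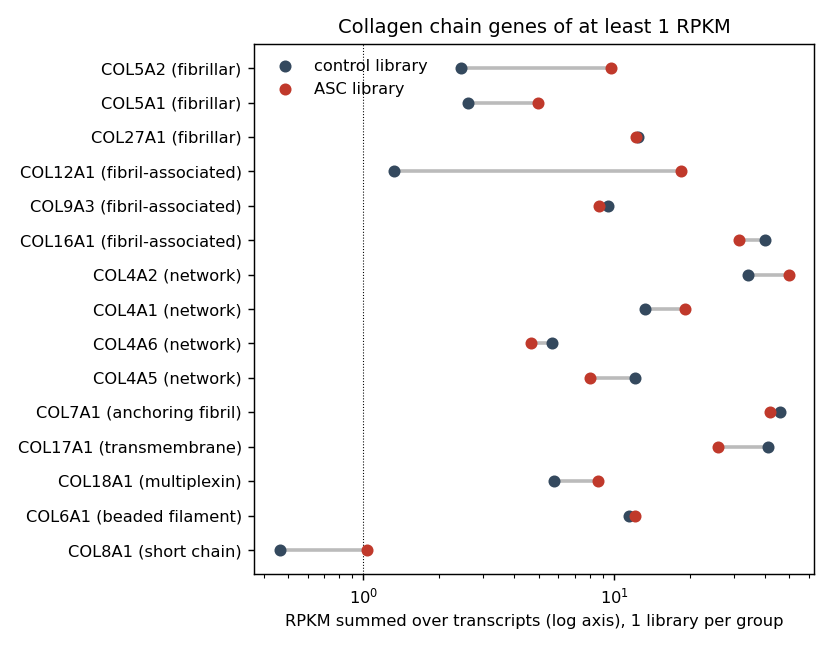
RPKM of the 15 collagen chain genes that reached 1 RPKM, on a log axis, grouped by collagen class, with 1 point for the ASC library (red) and 1 for the control library (dark blue) and a grey line joining them; the dotted line marks 1 RPKM. COL12A1 (18.5 against 1.32 RPKM) and COL5A2 (9.70 against 2.45 RPKM) have the longest lines, and COL17A1 and COL4A5 lie to the left in the ASC library.

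The order of the levels changed at the top of the family. In the control library COL7A1 (45.8 RPKM), COL17A1 (40.9 RPKM), COL16A1 (39.9 RPKM) and COL4A2 (34.3 RPKM) led. COL4A2 led in the ASC library at 49.8 RPKM, followed by COL7A1 at 41.7, COL16A1 at 31.4 and COL17A1 at 25.9 RPKM. COL12A1 stood at rank 14 of the 35 in the control library and at rank 6 in the ASC library. Short partial transcripts weigh much in these sums. By the single highest transcript of each gene, COL17A1 (33.0 RPKM) led in the control library and COL4A2 (46.1 RPKM) in the ASC library.

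COL12A1 encodes the chain of type XII collagen, a fibril-associated homotrimer of stressed and dense connective tissue. It stood at 18.5 RPKM in the ASC library and 1.32 RPKM in the control, 14.02-fold higher, from 6921 against 473 reads. Its log2 ratio was 3.07, second only to PYCARD among all 12471 compared genes, and its log2 ratio of reads was 3.86 (95% interval 3.73 to 4.002). The gene (ENSG00000111799.20) spans 75084326 to 75206051 of chromosome 6 in hg38, the build of all gene positions here, and is read from the minus strand. The 50 compared genes nearest to it on the chromosome had a median log2 ratio of 0.03.

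Type XII collagen is made in a long and a short form that differ in the large N-terminal region. The transcripts of GENCODE release 29 show this as a choice at the end of exon 2, where the long form goes on to exon 3 and the short form joins past exon 17, leaving out 15 exons and 3492 bases. The bases on either side of each junction are shown because they tell the forms apart. Small letters are the last 30 bases of exon 2 (75202720 to 75202827), shared by both, and capitals the 30 bases that follow, from exon 3 in the long form (75194831 to 75194947) and from the exon at 75152333 to 75152482 in the short form.
COL12A1 long form: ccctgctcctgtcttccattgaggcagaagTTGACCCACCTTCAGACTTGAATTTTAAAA
COL12A1 short form: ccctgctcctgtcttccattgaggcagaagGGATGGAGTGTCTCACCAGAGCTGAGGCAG

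Both forms were higher in the ASC library, the long form by far more. The 4 transcripts that hold exon 3 had 6665 against 428.3 estimated reads, 15.5-fold higher after scaling to depth. The short transcript (ENST00000345356.10) had 151.8 against 42.2, 3.603-fold higher. The log2 ratios of reads were 3.95 (95% interval 3.81 to 4.10) for the long form and 1.85 (95% interval 1.35 to 2.38) for the short form, and these intervals do not overlap. The short form therefore made up 8.91% of COL12A1 reads in the control library (95% interval 6.47% to 11.8%) and 2.19% in the ASC library (95% interval 1.86% to 2.57%). Within the long form, ENST00000322507.12 had 4024 against 280.1 reads and ENST00000615798.4 had 1699 against 71.0. ENST00000416123.6, which starts in exon 2, had 540.6 against 67.8. The remaining 103.7 against 2.56 reads were assigned to 6 partial transcripts. Reads of forms that share most exons are divided by estimation, which adds error that the intervals leave out.

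**Figure D2:**
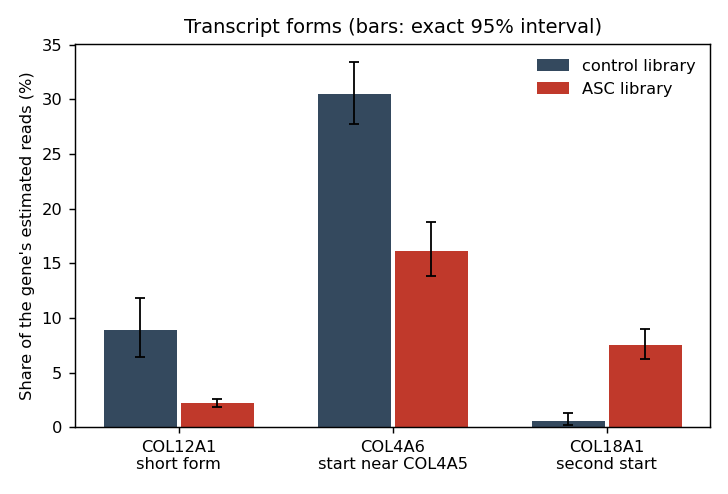
Share of a gene's estimated reads (percent) assigned to the short form of COL12A1, to the COL4A6 transcripts that start near COL4A5 and to the COL18A1 transcripts of the second start, in the control (dark blue) and ASC (red) libraries, with exact 95% binomial intervals as error bars. The short COL12A1 form (8.91% against 2.19%) and the near COL4A6 start (30.5% against 16.2%) hold less of their genes in the ASC library, and the second COL18A1 start holds more (0.564% against 7.57%).

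The stretch upstream of COL12A1 is shown because most of its reads came from transcripts starting there (90.7% in the ASC and 85.1% in the control library). It covers chr6:75206054-75206303 on the minus strand in RefSeq's GRCh38.p14, the 250 bases before the RefSeq start at 75206053. Short motifs were searched on both strands, with overlaps allowed, and appear in capitals. The AP-1 site was searched as TGANTCA and the SMAD element as GTCTG. The GC box was searched as GGGCGG and the TATA box as TATAAA, and the letters of the CCAAT box are its name.
COL12A1 upstream: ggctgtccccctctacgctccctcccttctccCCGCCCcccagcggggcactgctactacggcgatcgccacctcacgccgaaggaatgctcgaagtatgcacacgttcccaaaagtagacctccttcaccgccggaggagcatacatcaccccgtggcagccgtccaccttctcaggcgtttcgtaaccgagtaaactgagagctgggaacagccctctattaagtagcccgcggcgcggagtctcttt
This window holds 1 GC box and none of the other motifs. Of 35116 RefSeq windows of 250 bases before a start, 42.6% hold a GC box, 38.003% the SMAD element, 32.01% a CCAAT box, 10.7% a TATA box and 6.57% the AP-1 site. Among the 34 windows of the 25 collagen genes with an entry, the counts were 21 with a GC box, 13 with the SMAD element, 8 with a CCAAT box, 5 with a TATA box and 0 with the AP-1 site. Of these 25 genes only 11 were compared, and some of the windows overlap, so the counts are a description and no test. COL5A2, COL6A1, COL8A1 and COL9A3 are the compared genes without an entry.

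Of the 11 fibrillar chains, 10 were listed and 3 were compared, COL5A1, COL5A2 and COL27A1. Type V collagen starts and regulates the thin fibrils that type I collagen grows on, and its common molecule joins COL5A1 and COL5A2 chains. COL5A2 stood at 9.70 RPKM in the ASC library and 2.45 RPKM in the control, 3.96-fold higher, from 2246 against 572.0 reads. Its log2 ratio was 1.63, and its log2 ratio of reads was 1.97 (95% interval 1.83 to 2.10). COL5A1, the chain present in all type V molecules, stood at 4.96 against 2.62 RPKM, 1.89-fold higher, with a log2 ratio of reads of 0.98 (95% interval 0.84 to 1.11). Both were higher in the ASC library, and the read intervals of these chains do not overlap. The ratio of COL5A2 to COL5A1, per length, was 1.96 with ASC and 0.933 in the control. COL5A3, the remaining type V chain, was low in both, at 0.186 against 0.147 RPKM. The coding COL5A1 transcripts ENST00000371817.7 (1114 against 542.1 reads) and ENST00000618395.4 (140.9 against 86.5 reads) were both higher with ASC.

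COL5A2 (ENSG00000204262.12) spans 189031896 to 189179879 of chromosome 2, minus strand, beside COL3A1, which had only 10 against 6 reads. Its 50 nearest compared genes had a median log2 ratio of -0.13. COL5A1 (ENSG00000130635.15) spans 134641774 to 134844843 of chromosome 9, plus strand. COL27A1, a fibrillar chain of cartilage and epithelia, also on chromosome 9, stood at 12.2 against 12.4 RPKM, and its read interval (-0.09 to 0.07) holds 0. Its transcripts were divided alike, with 59.6% against 59.8% of its RPKM on the full-length transcript. ENST00000494090.6, annotated to undergo nonsense-mediated decay, had 335.0 against 293.1 reads.

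Of the 6 type IV chains 5 were listed. They are coded in head-to-head pairs, in which 2 genes run in opposite directions from a common stretch of DNA. COL4A1 and COL4A2, the chains of nearly all basement membranes, were both higher in the ASC library. COL4A2 stood at 49.8 against 34.3 RPKM and COL4A1 at 19.2 against 13.3 RPKM. Both were 1.45-fold higher, and the ratio of COL4A2 to COL4A1 was 2.59 in each library. The log2 ratios of reads were 0.52 (95% interval 0.48 to 0.57) for COL4A2 and 0.53 (95% interval 0.46 to 0.60) for COL4A1. Subtracting the median of the 50 nearest genes (0.09) left log2 ratios of 0.43 and 0.41. COL4A4, from another pair, had 0 against 1 read.

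COL4A5 and COL4A6, the pair on the X chromosome whose chains join in the basement membranes of skin and smooth muscle, were lower in the ASC library. COL4A5 had 7.99 against 12.1 RPKM, 1.52-fold lower, and a log2 ratio of reads of -0.61 (95% interval -0.70 to -0.52). COL4A6 had 4.66 against 5.68 RPKM, 1.22-fold lower, and a log2 ratio of reads of -0.25 (95% interval -0.39 to -0.12). The ratio of COL4A5 to COL4A6 was 1.72 with ASC and 2.14 in the control. Of the COL4A5 reads, ENST00000361603.6 held most (1308 against 2096 reads), while ENST00000328300.10 had 266.8 against 294.2. The X-linked pair thus differed in the direction opposite to that of the COL4A1 and COL4A2 pair, in these 2 libraries.

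COL4A6 has alternative starts, and its difference was assigned to only one of them. The 3 transcripts starting near COL4A5 (108439472 to 108439497) had 142.7 against 319.6 estimated reads, 2.25-fold lower after scaling, with a log2 ratio of -1.17 (95% interval -1.46 to -0.88). The 6 transcripts starting at 108438430, on the far side, had 738.3 against 726.3 reads and a log2 ratio of 0.02 (95% interval -0.13 to 0.17). The most abundant of them, ENST00000334504.11, had 356.6 against 392.7 reads. The near start held 30.5% of COL4A6 reads in the control library (95% interval 27.7% to 33.4%) and 16.2% in the ASC library (95% interval 13.8% to 18.8%). Its main coding transcript, ENST00000372216.8, had 126.9 against 269.7 reads. The processed transcript ENST00000477085.1, of the same start, had 0.278 against 31.3 reads.

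The DNA between the genes of each pair is shown in RefSeq's GRCh38.p14 on the plus strand, with the motifs in capitals. For COL4A1 (start 110307157) and COL4A2 (start 110307284) it is chr13:110307158-110307266. For COL4A6 at its near start (108439458) and COL4A5 (108439838) it is chrX:108439588-108439708, the part that lies within 250 bases of both starts. The stretch before the far COL4A6 start, 1036 bases away, is chrX:108438431-108438672 and is given on the minus strand, in the direction of COL4A6. Bases inside the listed transcripts that start at the site shown are left out. The stretch between COL4A1 and COL4A2 still lies within the span of the COL4A2 transcript ENST00000400163.6 (110305812 to 110424868). That of the far COL4A6 start lies within the span of the near-start transcript ENST00000372216.8 (108155607 to 108439472).
COL4A1 and COL4A2, between the genes: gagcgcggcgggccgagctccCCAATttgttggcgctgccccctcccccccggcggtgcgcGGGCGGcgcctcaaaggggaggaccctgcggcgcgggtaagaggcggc
COL4A6 near start and COL4A5, between the genes: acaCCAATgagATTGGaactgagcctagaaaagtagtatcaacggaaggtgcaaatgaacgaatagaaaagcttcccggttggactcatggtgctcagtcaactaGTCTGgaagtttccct
COL4A6 far start, upstream: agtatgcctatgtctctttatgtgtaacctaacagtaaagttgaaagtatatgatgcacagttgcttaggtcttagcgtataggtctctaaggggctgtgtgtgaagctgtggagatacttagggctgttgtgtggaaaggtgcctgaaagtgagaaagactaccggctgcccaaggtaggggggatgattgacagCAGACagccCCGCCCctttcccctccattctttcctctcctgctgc
The autosomal stretch is 78.0% G and C and holds a CCAAT box and a GC box. Between the X-linked genes 44.6% of bases are G or C, and the stretch holds CCAAT boxes on both strands and a SMAD element. Before the far start lie a SMAD element and a GC box, with 49.2% G and C. These matches are letters in a window and not measured binding.

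The collagens that hold squamous epithelium to its stroma were abundant in both libraries. COL17A1, the transmembrane collagen of hemidesmosomes, had 25.9 against 40.9 RPKM, 1.58-fold lower in the ASC library, from 4194 against 7071 reads. Its log2 ratio was -0.64 and its log2 ratio of reads -0.76 (95% interval -0.82 to -0.70), the lowest of the 15 compared collagen genes. The gene (ENSG00000065618.19) spans 104031286 to 104086002 of chromosome 10, minus strand. The full-length transcript held 95.5% against 95.7% of its reads, and the short 537-base transcript stood at 5.73 against 6.71 RPKM. COL7A1, the chain of anchoring fibrils, stood at 41.7 against 45.8 RPKM, 1.10-fold lower. With 9983 against 10635 reads its interval (-0.14 to -0.06) lies below 0 although the difference is small. The full-length transcript held 82.2% against 82.4% of its reads, and a transcript with a retained intron 15.5% against 14.8%.

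COL18A1 encodes the basement membrane collagen from whose C-terminus the fragment endostatin is cut. It stood at 8.66 against 5.78 RPKM, 1.499-fold higher in the ASC library, with a log2 ratio of reads of 0.64 (95% interval 0.53 to 0.76). The gene (ENSG00000182871.14) spans 45405137 to 45513720 of chromosome 21, plus strand. Its known starts give a short form and, from the second start, longer forms with an extended N-terminus. The short transcript (ENST00000400337.6) had 1414 against 973.8 reads, 1.45-fold higher after scaling. Transcripts of the second start (45455489 to 45455531) had 119.2 against 5.65 reads, a log2 ratio of 4.30 with a wide interval (3.14 to 5.78) set by the few control reads. The second start held 0.564% of COL18A1 reads in the control library (95% interval 0.220% to 1.30%) and 7.57% in the ASC library (95% interval 6.30% to 8.97%). Nearly all of these were assigned to ENST00000355480.9 (118.8 against 5.62 reads), so the short form stayed the main one in both libraries. Exons of COL18A1 overlap those of SLC19A1 on the opposite strand (1656 against 1571 reads), and without strand such reads cannot be told apart.

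The stretches before the COL18A1 starts, 50357 bases apart in RefSeq, are chr21:45404915-45405136 and chr21:45455272-45455488 on the plus strand. Bases inside the listed transcripts that start at each site are again left out. The second stretch still lies within the span of the short transcript ENST00000400337.6 (45405137 to 45513720).
COL18A1 upstream of the short form: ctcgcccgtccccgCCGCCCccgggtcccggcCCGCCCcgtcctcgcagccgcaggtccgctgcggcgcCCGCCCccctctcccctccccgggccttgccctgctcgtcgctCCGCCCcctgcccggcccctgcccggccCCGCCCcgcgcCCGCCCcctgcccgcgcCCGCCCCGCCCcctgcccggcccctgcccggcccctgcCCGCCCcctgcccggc
COL18A1 upstream of the second start: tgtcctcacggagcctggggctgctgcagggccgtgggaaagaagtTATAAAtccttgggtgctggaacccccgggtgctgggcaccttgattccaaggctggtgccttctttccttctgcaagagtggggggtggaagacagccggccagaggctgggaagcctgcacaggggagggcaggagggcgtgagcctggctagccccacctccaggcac
The stretch of the short form is 88.7% G and C with repeated GC boxes. That of the second start is 64.1% G and C and holds the TATA box letters 204 bases before the RefSeq start. A GC box 20 bases before that start lies in the bases left out.

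Shifts of single start sites were counted over the whole table. Transcripts of a gene whose 5′ ends lay within 500 bases of the next were grouped, and groups with at least 50 reads in either library were kept for genes with several groups. Of 29 such collagen groups in 16 genes, 6 differed by at least 2-fold after scaling to depth, 5 of them higher in the ASC library and 1 lower. Over all genes, 2.98% of groups were higher and 3.21% lower. This comparison was chosen with earlier results of these data known, so the shares are a description and no test. Of the 6, COL12A1 had 3 and COL5A2 had 1, where the gene itself differed, and the COL4A6 near start and the COL18A1 second start were in genes within 2-fold.

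The other fibril-associated chains did not follow COL12A1. COL16A1, of epithelial and dermal matrix, stood at 31.4 against 39.9 RPKM, 1.27-fold lower in the ASC library, with a log2 ratio of reads of -0.34 (95% interval -0.40 to -0.29). Its full-length transcript accounted for 17.4 against 21.9 RPKM and a 706-base partial transcript for 6.14 against 8.91. COL9A3, of type IX collagen, stood at 8.68 against 9.47 RPKM (369 against 380 reads), and its read interval (-0.26 to 0.16) holds 0. Most of that level lay on the noncoding transcript ENST00000467819.5 (6.02 against 7.03 RPKM), and the coding ENST00000343916.7 stood at 1.35 against 1.02 RPKM. Exons of both overlap TCFL5 on the opposite strand (922.0 against 854.0 reads), so without strand neither value is free of TCFL5 reads. Its 50 nearest compared genes on chromosome 20 had a median log2 ratio of 0.22, and relative to them COL9A3 stood at -0.33.

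COL6A1, of the beaded filaments near cell surfaces, stood at 12.1 against 11.5 RPKM, and its read interval (-0.05 to 0.15) holds 0. Its coding transcripts ENST00000361866.7 (1264 against 1273 reads) and ENST00000612273.1 (391.4 against 327.5 reads) were also close. Type VI molecules also need COL6A2 and a further chain, and COL6A2 stood at 0.435 against 0.356 RPKM and COL6A3 at 0.0852 against 0.0356 RPKM. COL8A1, a short-chain collagen of vessels and eye membranes, passed 1 RPKM only in the ASC library, at 1.04 against 0.464 RPKM with 148 against 46 reads. It was 2.23-fold higher in plain RPKM but had a log2 ratio of 0.48 on the log2(RPKM + 1) scale. Its log2 ratio of reads was 1.68 (95% interval 1.19 to 2.19), and its coding transcripts ENST00000261037.7 (93.7 against 22.3 reads) and ENST00000273342.8 (48.3 against 13.8) were both higher.

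**Figure D3:**
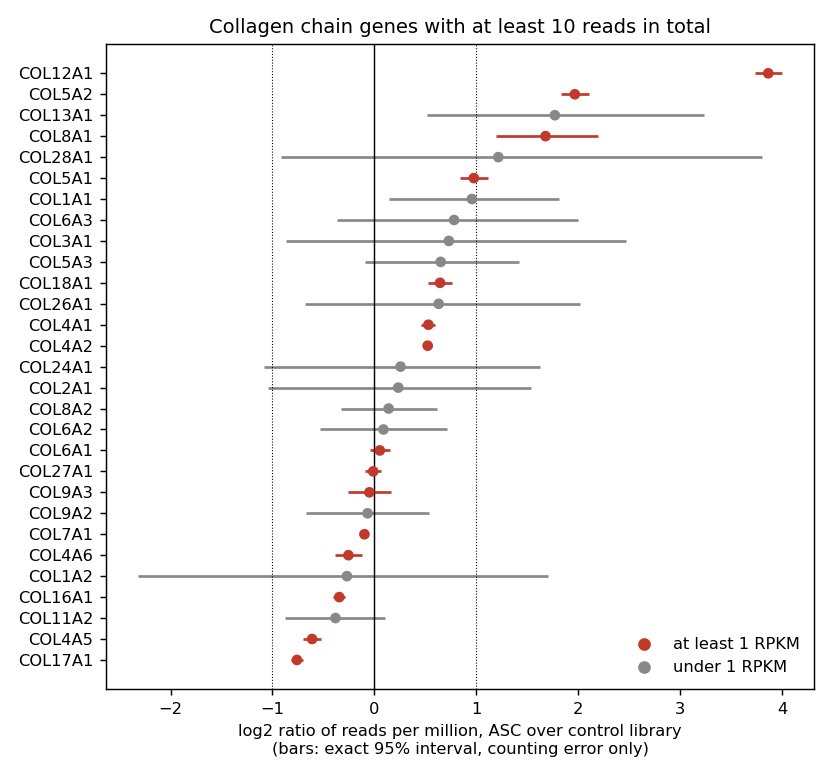
Log2 ratio of reads scaled to depth, ASC over control library, for the collagen chain genes with at least 10 reads in total and reads in both libraries, with exact 95% intervals for counting error. Red marks genes of at least 1 RPKM and grey those below it, and dotted lines mark 2-fold; COL12A1 (3.86), COL5A2 (1.97) and COL8A1 (1.68) lie wholly right of the 2-fold line, and COL17A1 (-0.76) and COL4A5 (-0.61) are the lowest.

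By counting error alone, 7 of the 15 compared collagen genes had read intervals above 0, 5 had intervals below 0 and 3 held 0. Such intervals are narrow at this depth. Of all compared genes 28.5% lay above 0 and 27.0% below, so a position on either side of 0 is common and is no measure of the error between cultures.

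The 20 collagen genes under 1 RPKM in both libraries summed to 429 against 376 reads. More reads lay in the ASC library for 11 of them and in the control library for 8, and COL20A1 had 1 read in each. The read interval lay above 0 for 2 and below 0 for 1. Of the 11076 genes under 1 RPKM in both libraries with at least 1 read, 3.15% lay above 0 and 4.57% below. The collagen genes were COL1A1, the main chain of type I collagen, with 39 against 20 reads, COL13A1, a transmembrane collagen, with 24 against 7 reads, and COL23A1, another transmembrane collagen, with 0 against 6 reads. The most read of the 20 were COL8A2 (83 against 75 reads), COL11A2 (64 against 83), COL9A2 (47 against 49), COL6A2 (47 against 44) and COL5A3 (41 against 26). COL6A3, COL2A1, COL24A1, COL26A1 and COL3A1 had from 6 to 19 reads in a library. COL28A1, COL1A2, COL6A5, COL15A1, COL4A4 and COL21A1 had at most 7. The chains of types I and III, which dominate fibroblast matrix, thus had few reads in both libraries, with COL1A2 at 5 against 6 reads.

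**Figure D4:**
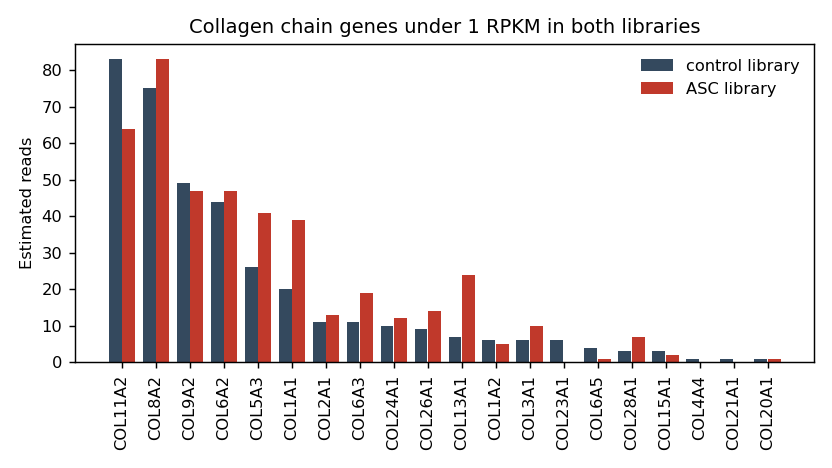
Estimated reads of the 20 collagen chain genes under 1 RPKM in both libraries, with bars from 0 for the control (dark blue) and ASC (red) libraries. The tallest bars are 83 reads, COL11A2 in the control library and COL8A2 in the ASC library, and the type I and III chains COL1A1, COL1A2 and COL3A1 have at most 39 reads.

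Markers of other cell types were examined for mRNA from cells other than the carcinoma line. Of 11 fibroblast markers 8 were listed, and their summed level was 30.9 against 30.2 RPKM. Of that sum, ACTA2 (20.3 against 22.7 RPKM), VIM (5.78 against 4.28) and TWIST2 (198 against 150 reads) made up most, genes that carcinoma cells also express. PDGFRA had 0 against 3 reads, LUM 1 against 0, POSTN 2 against 0 and PDGFRB 10 against 8. FAP differed, with 45 against 2 reads, or 0.516 against 0.0364 RPKM. The 4 listed endothelial markers summed to 2.84 against 2.14 RPKM, of which CDH5 made up 2.23 against 1.23 RPKM, and the 3 listed leukocyte markers to 24.2 against 26.0 RPKM. Nearly all of the leukocyte sum was CD68 (24.1 against 25.9 RPKM), while PTPRC had 1 against 0 reads and CD79A 2 against 4. ACTA2 and CD68 thus stood above most collagen genes, and both were lower in the ASC library. The part of other cell types in the collagen values was not tested. In bulk RNA, more cells making a transcript and more transcript per cell cannot be told apart.

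The proteins that fold, cut, link and bind collagen were examined as lists of their genes. Of 15 compared genes for folding and hydroxylation, none was 2-fold higher or lower, with a median of 0.05. Their largest log2 ratios were those of PLOD2, a lysyl hydroxylase (57.8 against 39.7 RPKM, 0.53), P3H2, a prolyl 3-hydroxylase (28.6 against 20.6 RPKM, 0.46), and FKBP10, a folding enzyme (-0.22). SERPINH1, the collagen chaperone, lay at 85.1 against 87.1 RPKM, and the 8 compared genes of export from the endoplasmic reticulum had a median of 0.02 and none past 2-fold. The procollagen-cutting enzymes had 4 compared genes and none past 2-fold, led by PCOLCE2 (-0.28), PCOLCE (-0.23) and BMP1 (0.21). No gene of these 3 lists, which cover the making and export of procollagen, passed 2-fold. Few genes did anywhere, with 0.617% of all compared genes at least 2-fold higher and 0.265% lower, so this sets the lists apart in no way.

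The crosslinking enzymes lay on both sides of 2-fold. Of 5 compared, 2 were at least 2-fold higher and 1 at least 2-fold lower, beside 0.617% and 0.265% of all compared genes. The gene lists were chosen with earlier results of these data known, so these shares are a description and no test. TGM2, tissue transglutaminase, stood at 225.7 against 63.9 RPKM, LOXL2, a lysyl oxidase-like enzyme, at 44.7 against 15.6 RPKM, and LOXL4, of the same family, at 0.783 against 3.35 RPKM with 102 against 438 reads. LOX itself was under 1 RPKM, at 0.864 against 0.909. Of the 3 compared fibril-binding proteins, FN1, fibronectin, was 2-fold higher (180.5 against 69.8 RPKM), while TNXB had a log2 ratio of 0.39 and SPARC 0.03.

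The collagen receptors had 5 compared genes, none past 2-fold and a median of 0.15. For this and the next lists, 0.617% of all compared genes were at least 2-fold higher and 0.265% lower. Their leading values were those of MRC2, an endocytic collagen receptor (6.96 against 5.07 RPKM, 0.39), ITGB1 (157.0 against 140.9 RPKM, 0.16) and ITGA1 (0.15). All 3 compared collagen-cleaving proteases lay below 0 and within 2-fold, with MMP2 at 11.4 against 16.0 RPKM, MMP1 at 2.65 against 3.14 and MMP14 at 132.3 against 141.5 RPKM. Of 12 compared basement membrane and hemidesmosome partners none passed 2-fold, 8 lay above 0, and the median was 0.09. LAMA3 (38.7 against 26.6 RPKM), a laminin chain of epithelial basement membranes, had a log2 ratio of 0.52. DST, whose epithelial product sits with COL17A1 in hemidesmosomes, had a log2 ratio of -0.64 (30.8 against 48.4 RPKM), while their partners ITGB4 (145.4 against 139.9 RPKM) and PLEC (43.1 against 42.3 RPKM) were nearly level.

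**Figure D5:**
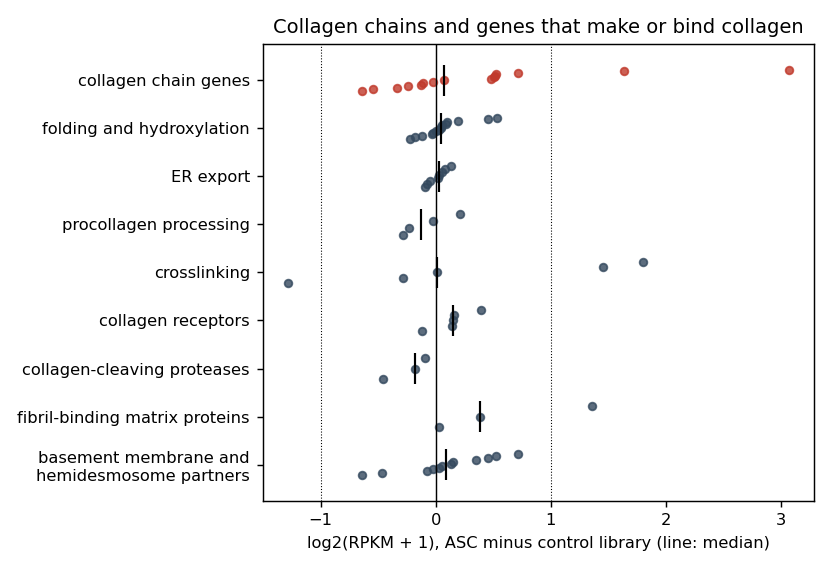
Log2(RPKM + 1) difference, ASC minus control library, of each compared collagen chain gene (red) and of each compared gene in 8 lists of genes that make, link, bind or cut collagen (dark blue), with the median of each list as a black line and dotted lines at 2-fold. The points past 2-fold are COL12A1 and COL5A2 among the chains, TGM2, LOXL2 and LOXL4 among the crosslinking enzymes, and FN1.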

How the data were processed

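RNA sequencing of 2 libraries, 1 per group, was analysed. Per the file headers, the deposited table gives each transcript's estimated counts (fractional, unscaled) and its RPKM in both libraries. Positions are in hg38, per the submitters' processing notes. Names of an aligner, a counting tool or an annotation are not given in the sources used. Per the labels' protocols, libraries were made from poly(A) RNA with an unstranded TruSeq kit. The vector label gave the ASC sample its group, because the genotype label there repeats the cell line. Transcript identifiers matched GENCODE release 29 (98.4% with the same version), with equal starts. Deposited stops exceed the annotated ends by 1 base, which was subtracted. Gene names that had become dates (285 lines) were restored through the transcript identifier for 284 lines.

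RPKM and estimated counts were summed per gene. Those reaching 1 RPKM in one of the libraries were compared on the log2(RPKM + 1) scale, and all p-values were left out, since there is no replicate. Summed counts were whole (within 0.1) in both libraries for 33 of the 35 collagen genes. Intervals of read ratios and shares are exact (Clopper-Pearson) at 95% on rounded estimated counts and cover counting error only. They were tested on simulated data. Upstream sequences are RefSeq's (GRCh38.p14). The collagen genes, gene lists and the start-site comparison were chosen with earlier results of these data known. All compared collagen genes are named, with up to 3 genes per pathway list by the largest absolute log2 ratio; others named from the lists (SERPINH1, LOX, ITGB4, PLEC) were added after their values were seen. A gene that this rule names is not reported here. Alternatives were pseudocounts of 0.1 and 3, no filter, a filter at 5 RPKM, median centring, TMM scaling (edgeR 4.0.16), counts scaled to depth only, the highest transcript, a 1.5-fold threshold and, added after seeing the data, centring each gene on its 50 nearest genes. Python 3.11.15, pandas 2.3.3, numpy 2.4.6, scipy 1.17.1 and R 4.3.3 were used.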

Additional observations from a re-analysis of the deposited data

How the results depend on the processing

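COL12A1 and COL5A2 were the collagen genes at least 2-fold higher under every alternative at that threshold. COL8A1 joined them (3 genes) with a pseudocount of 0.1 and with counts scaled to depth only, where 21 collagen genes were compared. Over all genes the number at least 2-fold higher also rose under these 2 settings, from 77 to 160 and 121. The number at least 2-fold lower rose from 33 to 127 and 65. No collagen gene was 2-fold lower under any of these alternatives, and 1, COL17A1, was lower at 1.5-fold on the log2(RPKM + 1) scale, where COL4A5 (1.52-fold lower in plain RPKM) was not counted. The median log2 ratio of the compared collagen genes was 0.07 and changed sign to -0.043 after subtraction of the 50 nearest genes, to -0.03 with a filter at 5 RPKM and to -0.02 with the highest transcript, so it shows no direction. COL12A1 ranged from 2.32 to 3.78 and COL5A2 from 1.22 to 1.94 on the log2 scale. COL6A1 alone among the 15 changed sign, under the highest transcript and the nearest-gene subtraction. No paired analysis was possible because each group has 1 library. With 1 library per group no value has a replicate check, and low collagen genes are limited by their few reads.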
